A study of Homo sapiens with 8 samples.

Results

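The comparison described here is the difference between the doxycycline responses of 2 lines of T47D cells: the day 2 minus day 0 change in the EglN2 shRNA line, minus the same change in the Scr line. It was computed for every probe set that the platform's gene table gives a gene name, 21214 of 33297, over all 8 arrays of the series. These include 18417 genes with a probe set of their own, every such gene of the table. T47D is a long-established human cell line, grown from a breast carcinoma that expresses the estrogen receptor. The groups were the EglN2 shRNA line at day 2 (48 h of doxycycline at 1 ug/ml), the EglN2 shRNA line at day 0 (0 h), the Scr line at day 2 and the Scr line at day 0, with 2 arrays each. Hairpins were delivered by lentivirus, the one against EglN2 being described as conditional and Scr as the control, and both lines were given the drug. No group was kept to day 2 without doxycycline, so within a line the drug and the time in culture cannot be told apart. Neither the hairpin sequence nor the number of clones is given in the labels, and a single EglN2 hairpin name was used.

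EGLN2 belongs to a family of oxygen-dependent prolyl hydroxylases, best known for marking the alpha chains of HIF, the hypoxia-inducible transcription factor, for destruction. Doxycycline itself inhibits mitochondrial translation in mammalian cells, and a difference of responses between 2 lines given the drug subtracts what both do alike. A negative value means that the day 2 minus day 0 change was lower in the EglN2 shRNA line than in the Scr line, whichever line moved. Such a value can come from a decrease in the EglN2 shRNA line, from an increase in the Scr line, or from both, so both changes are given for each gene. All levels are RMA log2 values, and all differences are log2 differences.

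The labelled cell type was checked against its markers. The 15 luminal epithelial markers measured had a median level of 12.005, and KRT8 averaged 13.97, 14.05, 13.93 and 13.99 in the EglN2 shRNA line at day 2 and day 0 and in the Scr line at day 2 and day 0. The 16 leukocyte and endothelial markers had a median level of 5.76, with PTPRC, the pan-leukocyte marker, between 4.20 and 4.31 in the 4 groups. Of these 16, 6 averaged at least 6, as did 12 of the 15 basal and mesenchymal markers measured, whose median was 6.82. Across probe sets the correlation within a replicate pair was 0.992 to 0.996, and array medians lay between 7.81 and 7.86. The labels do not say whether the 2 arrays of a group came from separate cultures, so the spread behind each p-value may be technical. With 4 residual degrees of freedom, the median standard error of the difference was 0.174 on 2 arrays per group, which sets the precision.

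The hairpin's target was measured by 1 probe set, annotated to EGLN2 and to the readthrough gene RAB4B-EGLN2. Its level was 8.26 and 8.29 in the EglN2 shRNA line at day 2 and 8.85 and 9.04 at day 0. Its Scr levels were 8.81 and 8.90 at day 2 and 8.97 and 9.0 at day 0. Both arrays of the EglN2 shRNA line at day 2 lay below the other 6. At day 2 the target stood at 62.9% of its day 0 level in the EglN2 shRNA line and at 91.4% in the Scr line. The difference of changes was -0.54 (SE 0.151, 95% interval -0.88 to -0.20, n = 2 arrays per group), with a limma adjusted p = 0.671 over all probe sets.

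By limma with Benjamini-Hochberg adjustment, 0 of 21214 probe sets (0.0%) passed an adjusted p of 0.05 for the difference of responses, and the smallest adjusted p was 0.165. At an unadjusted p under 0.05, 1511 probe sets (7.12%) were found, 845 lower (3.98%) and 666 higher (3.14%), where 10266 (48.4%) of all values were negative. Allowing the spread to follow the level in the same limma fit called 2 probe sets (0.00943%), and both belong to ALYREF. All values of single genes below are therefore differences that did not pass the adjusted test, except where that setting is named. Differences below -1 were found for 16 probe sets and above 1 for 4.

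**Figure D1:**
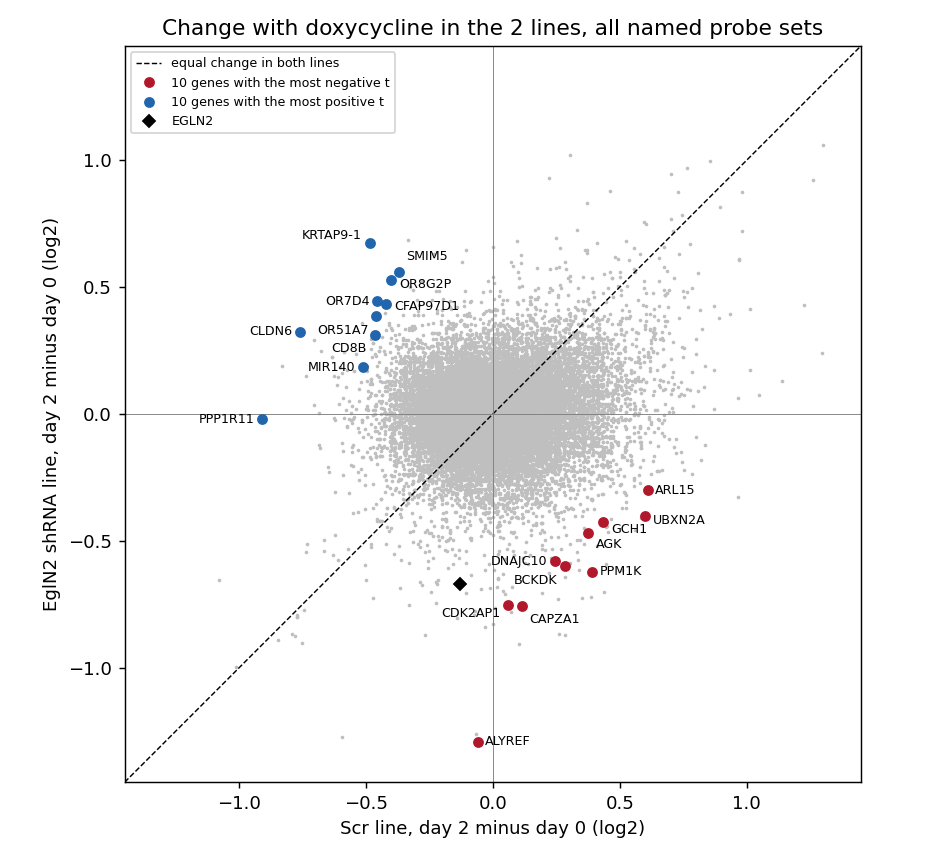
The day 2 minus day 0 change (log2) in the EglN2 shRNA line on the vertical axis against the Scr line on the horizontal axis, for 21214 named probe sets (grey points). The 10 genes with the most negative moderated t lie below the dashed line of equal change and the 10 with the most positive lie above it, and ALYREF has a change of -1.29 in the EglN2 shRNA line and -0.06 in the Scr line.

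ALYREF, an adaptor that binds spliced mRNA and hands it to the nuclear export receptor, had the largest difference relative to its error. Its probe set 8019772 read 10.74 and 10.89 in the EglN2 shRNA line at day 2 and 12.14 and 12.07 at day 0. Its Scr readings were 12.11 and 12.13 at day 2 and 12.25 and 12.11 at day 0. The EglN2 shRNA arrays at day 2 lay more than 1 log2 unit below all others, which lay together. The difference of changes was -1.23 (SE 0.151, 95% interval -1.57 to -0.89), a 2.35-fold difference between the folds, with a limma adjusted p = 0.165. With a spread that follows the level, the limma adjusted p was 0.0143. The change within the EglN2 shRNA line was -1.29 and that within the Scr line -0.06, so the difference rested mostly on the EglN2 shRNA line, where limma called the 2 ALYREF probe sets alone (0.00943% of those tested). A further ALYREF probe set, 8019273, read 10.69 and 10.85 in the EglN2 shRNA line at day 2 and 12.05 and 12.01 at day 0, against 12.05 and 12.06 in the Scr line at day 2 and 12.18 and 12.06 at day 0. Its difference was -1.20 (SE 0.149). The 2 probe sets tracked each other on every array and may share probes, so they are not independent readings.

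**Figure D2:**
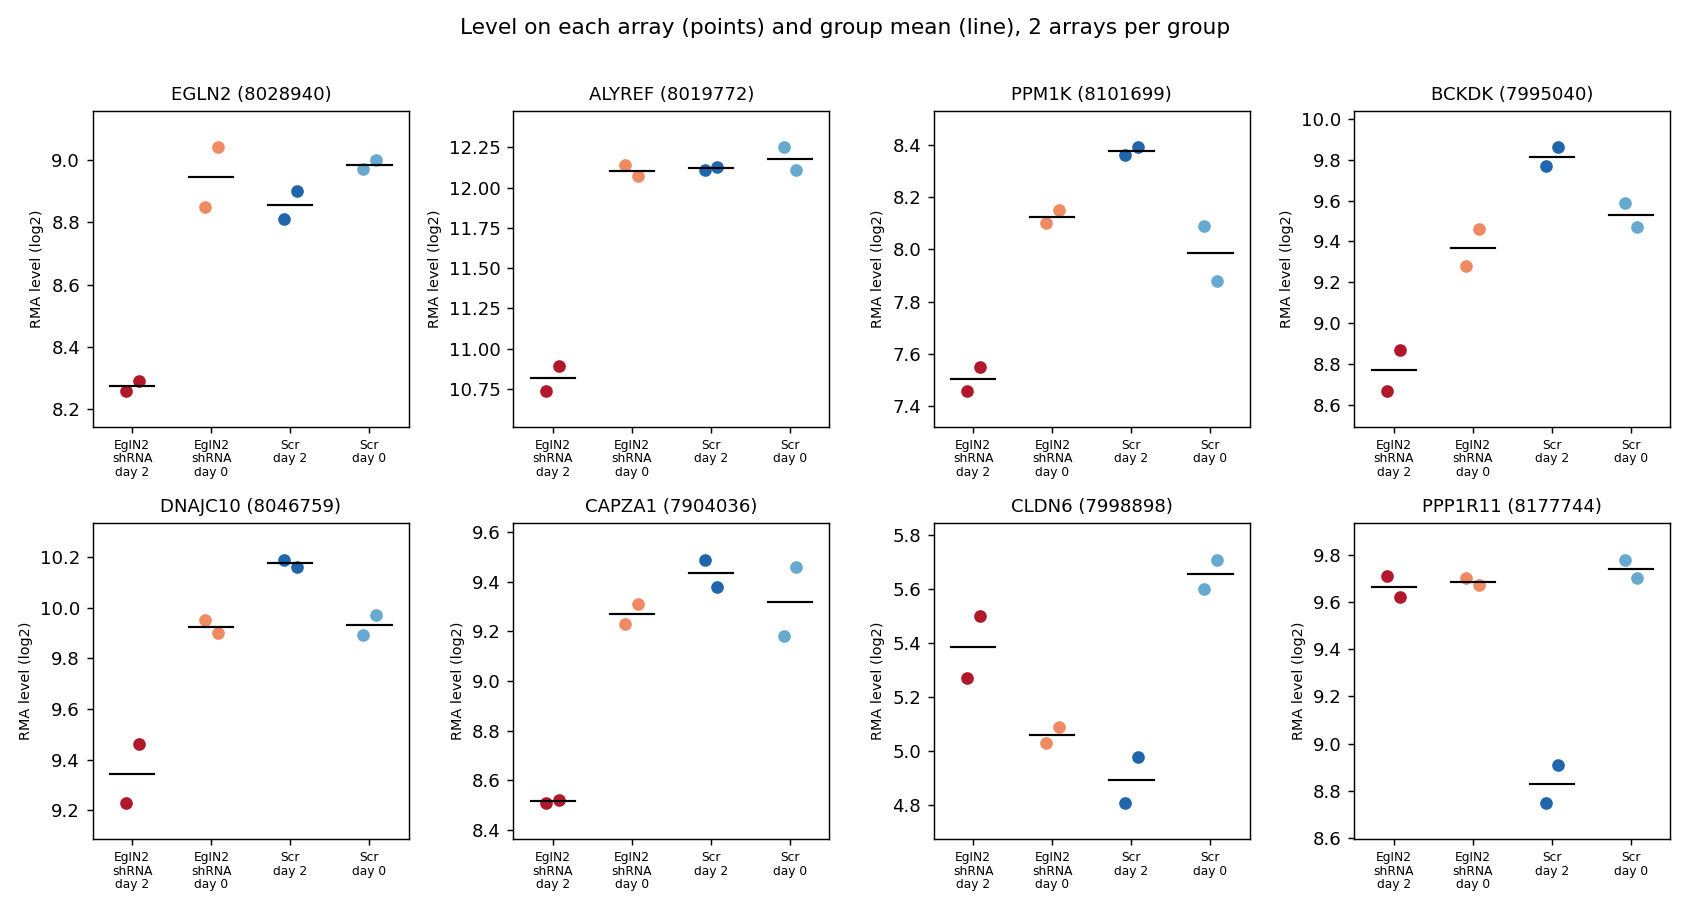
RMA log2 level on each array (points) and the mean of 2 arrays (line) for 8 named probe sets, by group, with the EglN2 shRNA line at day 2 and day 0 left of the Scr line at day 2 and day 0; the vertical axes do not start at 0 and differ between panels. ALYREF is low in the EglN2 shRNA line at day 2 alone (10.74 and 10.89), and PPP1R11 is low in the Scr line at day 2 alone (8.75 and 8.91).

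Of 31 measured genes of mRNA export, 21 had a negative difference and 10 a positive one, 1 was lower and 0 higher at an unadjusted p under 0.05, and 0 passed the adjusted test. Over all 18417 genes with 1 probe set each, 4.09% were lower and 3.14% higher at that unadjusted p. The median of the list was -0.09, beside 0.01 over all genes and -0.08 over genes in the same range of levels, of which 66.7% were negative. It was -0.04 without the first EglN2 shRNA array at day 2 or the first Scr array at day 0, 0.001 with quantile normalization and 0.0 with cyclic loess. The next smallest p of the list after ALYREF belonged to SRSF3, an SR protein that also serves export, with a difference of -0.36.

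PPM1K, the mitochondrial phosphatase that activates the branched-chain keto acid dehydrogenase, was measured by 2 probe sets. Probe set 8101699 read 7.46 and 7.55 in the EglN2 shRNA line at day 2 and 8.10 and 8.15 at day 0. The Scr arrays gave 8.36 and 8.39 at day 2 and 8.09 and 7.88 at day 0. The day 2 arrays lay below the day 0 arrays in the EglN2 shRNA line and above them in the Scr line. The changes were -0.62 and 0.39, and their difference was -1.01 (SE 0.154, 95% interval -1.36 to -0.67, limma adjusted p = 0.472). Probe set 8101701, the brighter, read 7.95 and 8.01 in the EglN2 shRNA line at day 2 and 8.13 and 8.20 at day 0, against 8.48 and 8.34 in the Scr line at day 2 and 7.98 and 8.32 at day 0. Its difference was -0.45 (SE 0.182, limma adjusted p = 0.684), less than that of the other probe set and in the same direction. Without the first Scr array at day 0 it was -0.28, and without the second it was -0.62.

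BCKDK, the kinase that inactivates the same dehydrogenase and so opposes PPM1K, read 8.67 and 8.87 in the EglN2 shRNA line at day 2 and 9.28 and 9.46 at day 0. The Scr arrays gave 9.77 and 9.86 at day 2 and 9.59 and 9.47 at day 0. As for PPM1K, the day 2 arrays were low in the EglN2 shRNA line and high in the Scr line. Its difference of changes was -0.89 (SE 0.167, limma adjusted p = 0.596), and at day 2 alone the lines differed by -1.05 (limma adjusted p = 0.0234). BCKDHB, the beta subunit of the dehydrogenase's first component, read 8.79 and 9.04 in the EglN2 shRNA line at day 2 and 9.50 and 9.46 at day 0, against 9.33 and 9.48 in the Scr line at day 2 and 9.19 and 9.16 at day 0. Its difference was -0.80 (SE 0.165). HIBCH, which acts in valine breakdown, had a difference of -0.59 (SE 0.24). The partner subunits were nearer 0, with -0.07 for BCKDHA, -0.16 for DBT and -0.21 for DLD. The transaminases that precede the complex had -0.14 for BCAT2 and 0.16 for BCAT1.

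Of 25 measured genes of branched-chain amino acid breakdown, 22 had a negative difference and 3 a positive one. Those lower at an unadjusted p under 0.05 numbered 4 (BCKDK, BCKDHB, PPM1K and HIBCH), 0 were higher, and 0 passed the adjusted test. Of genes at those levels, 64.8% were negative and 6.24% lower. The median was -0.16, beside 0.01 over all genes and -0.08 at the same range of levels. The median change was 0.09 in the EglN2 shRNA line and 0.26 in the Scr line. Without the second Scr array at day 0 the median difference was -0.26. PPM1K and ALYREF were named in the choice of this comparison, so their place among its leading genes is not independent evidence.

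Promoter sequences of these genes are shown because HIF, the best known route from the EGLN enzymes to transcription, binds DNA at sites that contain ACGTG. Each is the 250 bases before the gene's start, 5′ to 3′ on the gene's strand, from RefSeq (GRCh38.p14). Capitals mark ACGTG on either strand.

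ALYREF, chr17:81891588-81891837, minus strand: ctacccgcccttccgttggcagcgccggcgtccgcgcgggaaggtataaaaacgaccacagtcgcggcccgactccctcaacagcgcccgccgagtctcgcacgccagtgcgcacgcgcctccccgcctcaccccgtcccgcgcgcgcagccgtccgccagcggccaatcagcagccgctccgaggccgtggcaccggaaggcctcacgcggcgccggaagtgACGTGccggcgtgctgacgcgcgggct

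BCKDK, chr16:31108136-31108385, plus strand: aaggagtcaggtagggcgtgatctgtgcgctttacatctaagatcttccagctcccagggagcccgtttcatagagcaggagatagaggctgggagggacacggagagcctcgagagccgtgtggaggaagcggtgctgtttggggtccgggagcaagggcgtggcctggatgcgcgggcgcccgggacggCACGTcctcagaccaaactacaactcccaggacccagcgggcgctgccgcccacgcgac

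BCKDHB, chr6:80106421-80106670, plus strand: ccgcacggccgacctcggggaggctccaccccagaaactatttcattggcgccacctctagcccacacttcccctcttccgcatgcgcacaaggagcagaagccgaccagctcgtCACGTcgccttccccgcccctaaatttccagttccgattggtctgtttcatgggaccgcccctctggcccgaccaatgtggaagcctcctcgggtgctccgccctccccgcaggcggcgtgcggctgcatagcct

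PPM1K, chr4:88284562-88284811, minus strand: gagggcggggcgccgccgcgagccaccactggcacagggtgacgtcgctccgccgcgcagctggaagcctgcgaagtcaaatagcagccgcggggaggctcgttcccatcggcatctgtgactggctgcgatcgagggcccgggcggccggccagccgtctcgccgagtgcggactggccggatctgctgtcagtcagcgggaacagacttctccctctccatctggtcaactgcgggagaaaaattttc

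The letters ACGTG occurred 1 time each in the windows of ALYREF, BCKDK and BCKDHB, starting 27, 59 and 135 bases before the gene start, and 0 times in that of PPM1K. They were held by 34.8% (8 of 23) of the windows of branched-chain amino acid breakdown genes, 40.0% (12 of 30) of mitosis, 25.8% (8 of 31) of mRNA export and 52.9% (18 of 34) of HIF target windows, against 18.7% of all 27305 windows of that length in the table. In the other lists searched the shares were 23.7% for amino acid stress, 23.5% for DNA replication, 16.7% for replication-dependent histones and 11.5% for the proteasome. A match is a description of the letters and not a bound site.

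The other leading genes with a lower response in the EglN2 shRNA line serve various functions. CAPZA1, which caps the growing ends of actin filaments, read 8.51 and 8.52 in the EglN2 shRNA line at day 2 and 9.23 and 9.31 at day 0, against 9.49 and 9.38 in the Scr line at day 2 and 9.18 and 9.46 at day 0. Its difference was -0.87 (SE 0.168), mostly from the EglN2 shRNA line. CDK2AP1, a CDK2-binding protein, read 10.69 and 10.65 in the EglN2 shRNA line at day 2 and 11.36 and 11.48 at day 0, against 11.30 and 11.51 in the Scr line at day 2 and 11.37 and 11.32 at day 0. The difference was -0.81 (SE 0.156), again mostly from the EglN2 shRNA line. DNAJC10, a disulfide reductase of the endoplasmic reticulum, read 9.23 and 9.46 in the EglN2 shRNA line at day 2 and 9.95 and 9.90 at day 0, against 10.19 and 10.16 in the Scr line at day 2 and 9.89 and 9.97 at day 0. Its difference was -0.83 (SE 0.156).

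AGK, a mitochondrial lipid kinase, read 8.50 and 8.61 in the EglN2 shRNA line at day 2 and 8.97 and 9.08 at day 0, against 9.30 and 9.34 in the Scr line at day 2 and 8.97 and 8.92 at day 0. Its difference was -0.85 (SE 0.144), made of opposite changes of like size (-0.47 and 0.38). GCH1, which starts tetrahydrobiopterin synthesis, had -0.86 (SE 0.162) with changes of -0.43 in the EglN2 shRNA line and 0.44 in the Scr line. UBXN2A, a UBX-domain protein, had -1.0 (SE 0.184) from -0.40 and 0.60. ARL15, a small GTPase-like protein, had -0.91 (SE 0.161) from -0.30 and 0.61, and so rested mostly on the Scr line. The limma adjusted p of these genes lay between 0.590 and 0.596. Among the 10 genes with the most negative t, 5 rested mostly on the EglN2 shRNA line, 1 mostly on the Scr line and 4 on opposite changes. All 4 possible changes of the EglN2 shRNA line lay below those of the Scr line for all 10, as for 10.4% of all named probe sets. All changes were negative in the EglN2 shRNA line and positive in the Scr line for 7 of them (3.02% of all). For 4 of the 10, both EglN2 shRNA arrays lay above both Scr arrays at day 0, while for BCKDK they lay below. A higher day 0 level is itself part of a negative difference. The share of all named probe sets with either order at day 0 was not computed, so the count is a description. At day 0 the lines differed by 0.545 for ARL15 and 0.465 for UBXN2A (limma adjusted p = 0.455 for each).

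Between the lines at day 2 alone, limma called 16 of 21214 probe sets (0.0754%). Of the genes named here, ALYREF (-1.31, adjusted p = 0.00424), PPM1K probe set 8101699 (-0.87, adjusted p = 0.0328), CAPZA1 (-0.92, adjusted p = 0.0356), DNAJC10 (-0.83, adjusted p = 0.0385) and AGK (-0.77, adjusted p = 0.0385) were lower in the EglN2 shRNA line, as was BCKDK. The other PPM1K probe set, 8101701, did not pass at day 2 (-0.43, limma adjusted p = 0.569). The comparison at day 2 alone shares its 4 arrays with the difference of responses and is no independent support.

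PPP1R11, an inhibitory subunit of protein phosphatase 1, was the only one of the 10 genes with the most positive t at a mean level over 8. It read 9.71 and 9.62 in the EglN2 shRNA line at day 2 and 9.70 and 9.67 at day 0. The Scr arrays gave 8.75 and 8.91 at day 2 and 9.78 and 9.70 at day 0. The Scr arrays at day 2 lay alone below the other 6. The difference was 0.89 (SE 0.149, limma adjusted p = 0.587), made of -0.02 in the EglN2 shRNA line and -0.91 in the Scr line, and at day 2 alone the lines differed by 0.84 (limma adjusted p = 0.0328). Probe set 8117834 of PPP1R11 held identical values on all 8 arrays and adds no further reading.

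CLDN6, a tight junction claudin, read 5.27 and 5.50 in the EglN2 shRNA line at day 2 and 5.03 and 5.09 at day 0, against 4.81 and 4.98 in the Scr line at day 2 and 5.60 and 5.71 at day 0. Its difference was 1.09 (SE 0.168, limma adjusted p = 0.472), made of 0.33 in the EglN2 shRNA line and -0.76 in the Scr line at a dim level. KRTAP9-1, a hair keratin-associated protein, had the largest difference of these 10, 1.16 (SE 0.225). The remaining 7 genes with the most positive t were the olfactory receptors OR7D4 (0.90) and OR51A7 (0.85), the olfactory receptor pseudogene OR8G2P (0.93), the T cell co-receptor chain CD8B (0.78), the microRNA gene MIR140 (0.70), CFAP97D1 (0.86) and SMIM5 (0.93). A further CD8B probe set had 0.29 (unadjusted p = 0.178). Of the 10, 9 had a mean level under 8 and 6 under 6, beside a median of 7.84 over all named probe sets. Of the 10, 7 rested on opposite changes and 3 mostly on the Scr line. All 4 possible changes of the EglN2 shRNA line lay above those of the Scr line for all 10, as for 10.1% of all named probe sets, and 9 had only positive changes in the EglN2 shRNA line and negative ones in the Scr line (2.67% of all). For 9 of the 10, both EglN2 shRNA arrays lay below both Scr arrays at day 0. The day 0 levels are part of the difference by which these genes were chosen. The share of all named probe sets with this order was not computed, so the count is a description. At day 0 the lines differed by -0.92 for KRTAP9-1, -0.77 for OR7D4 and -0.595 for CLDN6 (limma adjusted p = 0.447, 0.447 and 0.455). At day 2 they differed by 0.24, 0.13 and 0.49.

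The sign of the difference moved with the level of the probe set. Its median was 0.08 for levels of 5 to 6, 0.10 for 6 to 7 and 0.07 for 7 to 8, against -0.02 for 8 to 9, -0.08 for 9 to 10 and -0.08 for 10 to 11. The medians of the EglN2 shRNA line's own change stayed between -0.02 and 0.02 in all level ranges. Those of the Scr line's change ran between -0.09 (levels 6 to 7) and 0.07 (11 and over). Over probe sets at a level of at least 10, the median deviation from the probe set's mean was -0.0825 and -0.0213 on the Scr day 0 arrays and between 0.005 and 0.0325 on the other 6. The part of this shift in the results was not tested. A list of bright genes is therefore set beside the median of genes at its own levels.

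**Figure D3:**
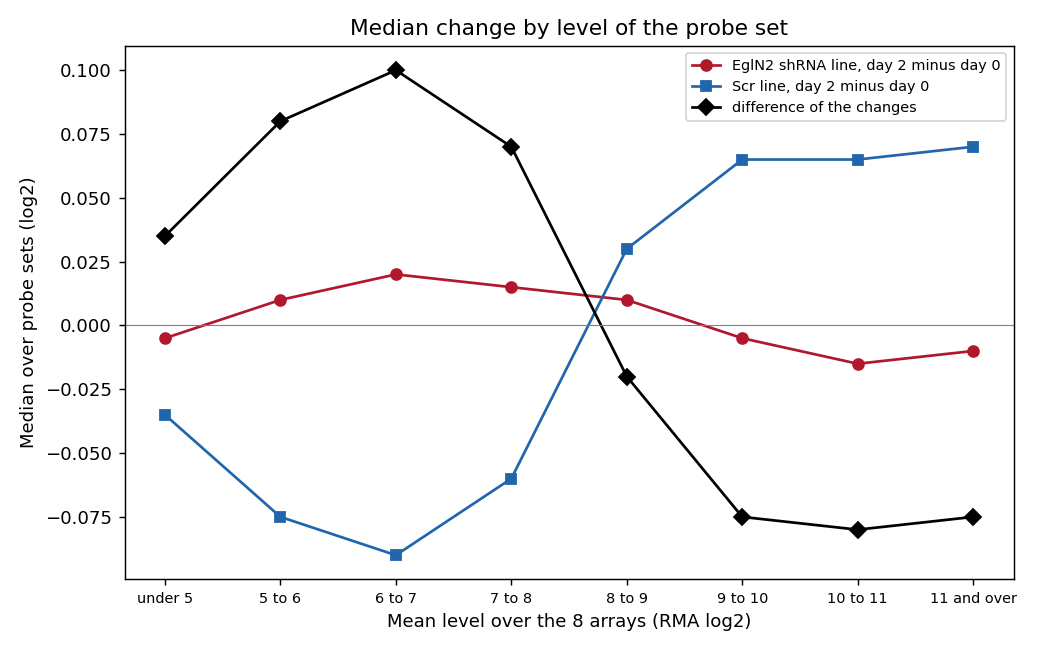
Median over probe sets (log2) of the change in the EglN2 shRNA line, the change in the Scr line and the difference of the changes, against the mean level over the 8 arrays in steps of 1 log2 unit. The difference is 0.10 at levels of 6 to 7 and -0.08 at 10 to 11, while the EglN2 shRNA line stays near 0.

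Genes of mitosis had the most negative median of the 25 lists, -0.35, beside -0.08 over genes at the same range of levels. The difference was negative for 33 of 34 measured members (67.2% of genes at those levels), 12 were lower and 0 higher at an unadjusted p under 0.05, where 4.80% of genes at those levels were lower, and 0 passed the adjusted test. For 24 of the 34 genes every possible change in the EglN2 shRNA line lay below every one in the Scr line, where this held for 10.7% of all genes and 17.1% at those levels. The median change was -0.11 in the EglN2 shRNA line and 0.28 in the Scr line. In bulk RNA of either line, a change in the share of dividing cells and a change of these RNAs per cell cannot be told apart. The median deviation of the list on single arrays was -0.135 and 0.0319 in the EglN2 shRNA line at day 2, 0.05 and 0.0406 at day 0, 0.143 and 0.138 in the Scr line at day 2, and -0.193 and -0.0794 in the Scr line at day 0. The Scr arrays were thus high at day 2 and low at day 0, and the day 2 arrays of the EglN2 shRNA line lay on either side of 0. The list's median difference was -0.26 without the first and -0.43 without the second EglN2 shRNA array at day 2, and -0.27 with quantile normalization.

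BUB3, of the spindle checkpoint, read 10.50 and 10.82 in the EglN2 shRNA line at day 2 and 11.20 and 11.21 at day 0, against 11.27 and 11.36 in the Scr line at day 2 and 10.79 and 11.18 at day 0. Its difference was -0.88 (SE 0.213). SPC25, a kinetochore subunit, had -0.73 (SE 0.193). NUSAP1, a spindle microtubule protein, read 10.93 and 11.07 in the EglN2 shRNA line at day 2 and 11.15 and 11.07 at day 0, against 11.21 and 11.20 in the Scr line at day 2 and 10.75 and 10.85 at day 0. Its difference of -0.52 (SE 0.147) rested mostly on the Scr line. KIF11, the kinesin that separates spindle poles, had -0.63 (SE 0.195) from -0.20 in the EglN2 shRNA line and 0.43 in the Scr line.

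**Figure D4:**
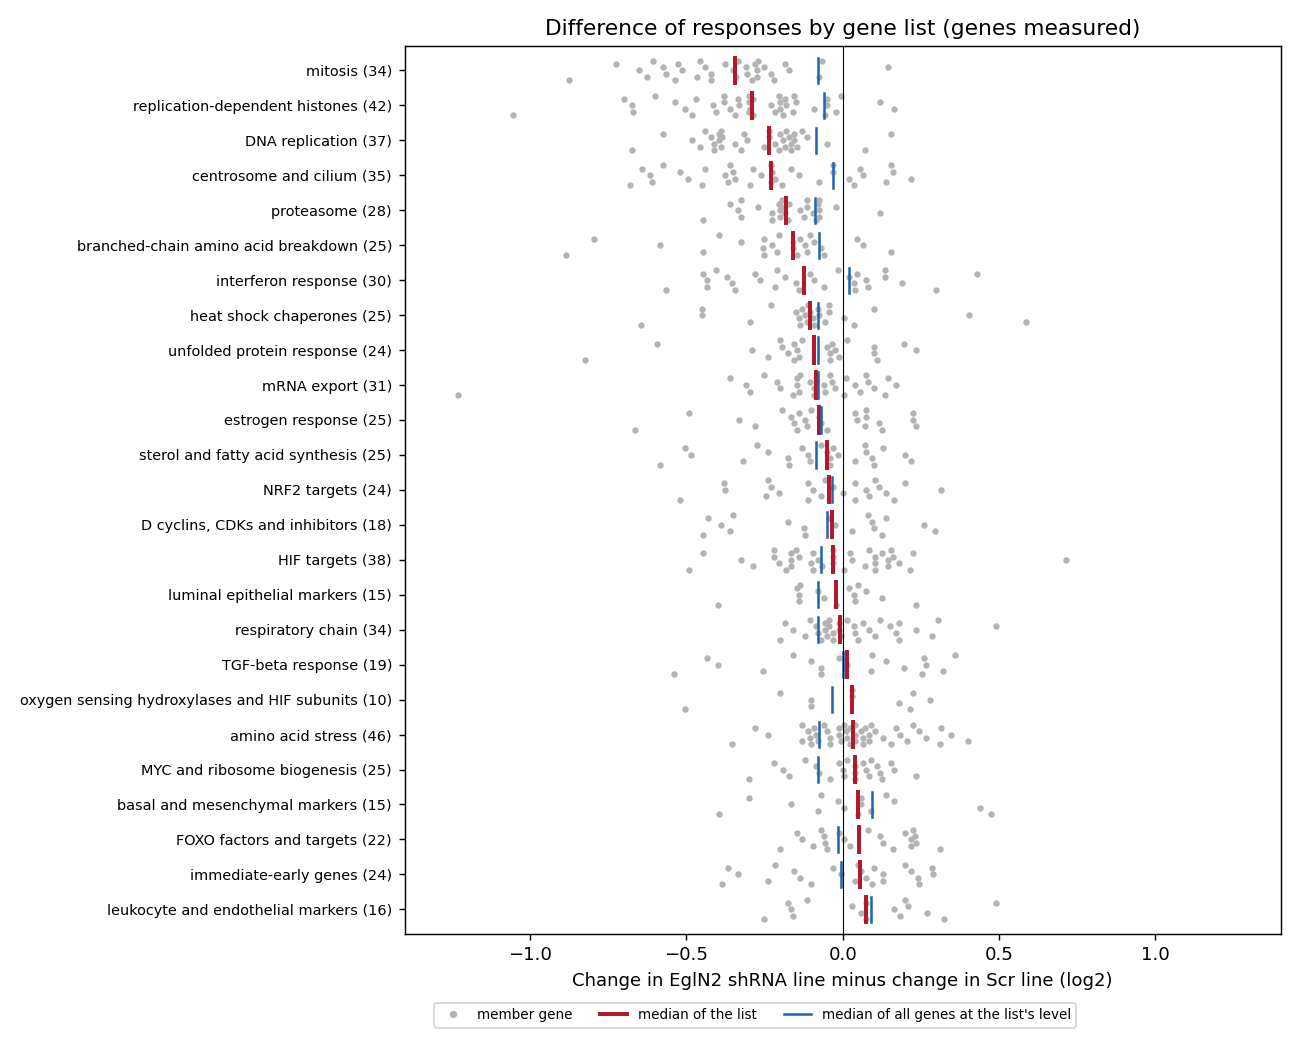
Change in the EglN2 shRNA line minus change in the Scr line (log2) for each measured member (grey points) of 25 gene lists, with the median of the list (red) and the median of all genes within the list's middle range of levels (blue). The mitosis list has a median of -0.35 against -0.08 at its levels, and mRNA export has -0.09 against -0.08.

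The promoter of KIF11 is shown because TTTGAA, the cell cycle homology region through which repressor complexes silence mitotic genes outside division, recurs in this list. Capitals mark TTTGAA on either strand in the 250 bases before the gene start (RefSeq, GRCh38.p14).

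KIF11, chr10:92592880-92593129, plus strand: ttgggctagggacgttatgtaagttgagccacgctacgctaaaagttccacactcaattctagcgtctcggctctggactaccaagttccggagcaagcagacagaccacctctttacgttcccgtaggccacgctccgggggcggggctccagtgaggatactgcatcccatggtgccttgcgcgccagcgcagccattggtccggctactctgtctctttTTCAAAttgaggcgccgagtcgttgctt

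The match of KIF11 starts 28 bases before the gene start. Of the other mitosis genes named above, NUSAP1 had 0 matches in its window, and the match of SPC25 starts 247 bases before the gene start. BUB3 has no window in the table. Of the 30 mitosis genes with a window in the table, 17 (56.7%) held TTTGAA, against 13.6% of all 27305 windows. With the 50 bases after the start included, the shares were 73.3% (22 of 30) and 15.4%. In the windows before the start, 31.0% (13 of 42) of replication-dependent histone genes held TTTGAA, also above the share of all windows. The other lists searched lay between 0.0% (branched-chain amino acid breakdown) and 11.5% (proteasome). CCAAT, which starts 53 bases before the start of KIF11, was held by 76.7% of the mitosis windows and 33.0% of all. Every other list searched also lay above the share of all windows, from 38.2% for HIF targets to 85.7% for replication-dependent histones. A high share of CCAAT was thus not particular to the mitosis list.

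DNA replication genes had a negative difference in 35 of 37 members and a median of -0.24, beside -0.09 at their levels, with 7 lower and 0 higher at an unadjusted p under 0.05. Of genes at those levels, 65.5% were negative and 5.63% lower. CDT1, a licensing factor, had -0.58 and RRM2, a ribonucleotide reductase subunit, -0.44. CLSPN, the checkpoint adaptor, had -0.68, all of it from the EglN2 shRNA line (-0.69 against -0.01). Without the first Scr array at day 0 the list's median was -0.09, and without the second it was -0.36. Replication-dependent histone genes had a negative difference in 40 of 42 members and a median of -0.29, beside -0.06 at their levels, with 2 lower and 0 higher at that unadjusted p. Of genes at those levels, 61.4% were negative and 6.26% lower, so the count of lower members is no larger than the background. Their median change was 0.02 in the EglN2 shRNA line and 0.31 in the Scr line. H4C4 had -1.06 with a standard error of 0.526, and H2BC8 -0.68 (SE 0.201). Histone genes of one type are near-identical copies, and probes may read several. The list's median was -0.18 without the first EglN2 shRNA array at day 2, -0.16 without the second at day 0, -0.17 without the second Scr array at day 2 and -0.16 without the first at day 0.

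Centrosome and cilium genes had a median of -0.23, beside -0.03 at their levels, with 27 of 35 negative and 5 lower at an unadjusted p under 0.05, where 54.7% of genes at those levels were negative and 6.23% lower. BBS10, a chaperonin-like protein of ciliogenesis, had -0.68 and PLK4, the kinase that starts centriole duplication, -0.64. The median was -0.13 without the first and -0.36 without the second EglN2 shRNA array at day 2, and -0.14 without the first Scr array at day 0. Proteasome genes were negative in 27 of 28 members with a median of -0.18, beside -0.09 at their levels, and 0 were lower or higher at that unadjusted p, where 71.2% of genes at those levels were negative and 3.08% lower. Their median was -0.10 without the first Scr array at day 0.

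Of 10 oxygen-sensing hydroxylases and HIF subunits, the genes nearest to EGLN2 in function, 4 were negative and 6 positive, with a range of -0.51 to 0.28 and a median of 0.03. That median ran between -0.04 and 0.12 with 1 array left out. EGLN1, the main hydroxylase of HIF in most cells, had 0.18 (SE 0.158), and EGLN3, itself a HIF target, 0.03 (SE 0.19). HIF1A, the alpha subunit, read 10.59 and 10.70 in the EglN2 shRNA line at day 2 and 10.72 and 10.86 at day 0, against 11.03 and 11 in the Scr line at day 2 and 10.49 and 10.82 at day 0. Its difference of -0.51 (SE 0.181, unadjusted p = 0.0199) rested mostly on the Scr line. Of 38 HIF targets, 21 were negative and 17 positive, with a range of -0.49 to 0.72 and a median of -0.03 beside -0.07 at their levels. GBE1, a glycogen branching enzyme, had -0.49. NDRG1, a stress-response gene, read 10.14 and 8.66 in the EglN2 shRNA line at day 2 and 8.52 and 8.24 at day 0, against 8.17 and 7.85 in the Scr line at day 2 and 7.99 and 7.42 at day 0. Its difference of 0.72 (SE 0.548) came with 1 array far above the rest.

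CCND1, which encodes cyclin D1, read 10.48 and 10.78 in the EglN2 shRNA line at day 2 and 10.61 and 10.92 at day 0. The Scr arrays gave 10.60 and 10.95 at day 2 and 10.79 and 10.79 at day 0. The groups overlapped, and the difference was -0.12 (SE 0.224, limma adjusted p = 0.905), positive when 1 of 3 arrays was left out. The 18 D cyclins, CDKs and inhibitors had 10 negative and 8 positive values with a median of -0.04, which ran between -0.13 and 0.08 with 1 array left out.

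Amino acid stress genes had like medians in both lines, with a change of 0.34 in the EglN2 shRNA line and 0.31 in the Scr line. The median difference of the 46 members was 0.03, with 18 negative, 28 positive and 0 past an unadjusted p of 0.05 in either direction. Of genes at those levels, 65.0% were negative. The list's median ran between -0.02 and 0.07 with 1 array left out. Heat shock chaperones had 20 of 25 negative, a median of -0.11 beside -0.08 at their levels, and 1 lower and 2 higher at that unadjusted p. Of genes at those levels, 69.9% were negative, 3.61% lower and 0.481% higher. CRYAB, a small heat shock protein, read 6.61 and 6.46 in the EglN2 shRNA line at day 2 and 5.90 and 5.81 at day 0, against 6.41 and 6.18 in the Scr line at day 2 and 6.17 and 6.23 at day 0. Its difference was 0.59 (SE 0.164), mostly from the EglN2 shRNA line. Interferon response genes had a median of -0.12 beside 0.02 at their levels, with 3 of 30 lower, where 5.07% of genes at those levels were lower, among them the RNA sensor RIGI (-0.57). That median was -0.003 without the first EglN2 shRNA array at day 0, -0.21 without the first Scr array at day 0 and -0.03 without the second.

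On the arrays as deposited the medians of the remaining lists were -0.09 for the unfolded protein response, -0.08 for the estrogen response, -0.05 for sterol and fatty acid synthesis, -0.04 for NRF2 targets, -0.02 for luminal markers and -0.01 for the respiratory chain. They were 0.02 for the TGF-beta response, 0.04 for MYC and ribosome biogenesis, 0.05 for FOXO factors and targets, 0.05 for basal and mesenchymal markers, 0.06 for immediate-early genes and 0.08 for leukocyte and endothelial markers. With 1 array left out these medians ran further, up to 0.22 for immediate-early genes, 0.22 for leukocyte and endothelial markers, 0.13 for basal and mesenchymal markers and 0.13 for the TGF-beta response, and down to -0.17 for sterol and fatty acid synthesis, -0.17 for the estrogen response and -0.12 for the unfolded protein response. The MYC and ribosome biogenesis median was 0.12 with quantile normalization. At an unadjusted p under 0.05, 3 of 19 genes of the TGF-beta response were lower, where 5.71% of genes at those levels were. The NRF2, sterol and fatty acid synthesis and unfolded protein response lists held 2 lower members each, of 24, 25 and 24. Of genes at their levels, 5.63%, 5.23% and 5.76% were lower. The estrogen response and luminal lists held 1 lower member each, of 25 and 15, where 6.39% and 2.83% of genes at their levels were lower. The respiratory chain held 1 higher member of 34, where 0.441% of genes at those levels were higher. DNAJC3, an inhibitor of the PERK kinase, had -0.60 in the unfolded protein response, STARD4, a sterol carrier, had -0.51, and GCLM, of glutathione synthesis, had -0.52. No member of any of the 25 lists passed the adjusted test (0 of 18417 genes at 1 probe set each), where 7.23% of these genes had an unadjusted p under 0.05.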

How the data were processed

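Total RNA of 8 T47D samples was hybridised to Affymetrix Human Gene 1.0 ST arrays. The authors deposited log2 values per probe set, computed by RMA; the submitters' processing notes name Affymetrix Expression Console, whose version is not given in the sources used here. This method normalizes between arrays and compresses differences of dim genes. Groups came from the sample titles. Of the probe sets, 19460 have 1 gene in the platform's annotation, 1754 several and 12083 none; gene IDs gave current RefSeq names (GRCh38.p14) to 19429 of the first. Values were used as deposited.

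A model of the 4 group means over the 8 arrays was fitted in limma 3.58.1 (R 4.3.3; contrasts.fit, eBayes, two-sided), adjusted by Benjamini-Hochberg over 21214 named probe sets (threshold 0.05). Lists used the probe set with the highest mean per gene (18417 genes) and had no set test; "at the same levels" means all genes between the list's quartiles of mean level. Named were EGLN2, ALYREF, PPM1K, CCND1, the 10 single-gene probe sets with the largest positive and the 10 with the largest negative t, and up to 4 members per list by p; other list members named were chosen after their values were seen. The comparison, members and lists were chosen with earlier results of these data known. The promoter window was shortened to the bases before the gene start after the shares in the longer window were known. A change rested mostly on one line where it was over 2 times the other's. The scripts were tested on simulated data. Alternatives were 8 fits leaving out 1 array, and 8 others.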

Additional observations from a re-analysis of the deposited data

Results flagged for a closer look

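For 17 of the 23 named probe sets, all 4 possible day 2 minus day 0 changes went one way in one line and the opposite way in the other. The same held for 3.02% of all named probe sets with the EglN2 shRNA line lower and for 2.67% with it higher, and 16 of these were named for a large difference (PPM1K probe set 8101701 was named in any case), so the pattern is a description. The limma test of the difference itself passed for none of them (limma adjusted p between 0.472 and 0.684). Lower in the EglN2 shRNA line and higher in the Scr line were PPM1K (-1.01 and -0.445 in its 2 probe sets), UBXN2A (-1.0), ARL15 (-0.91), BCKDK (-0.885), GCH1 (-0.86), AGK (-0.845) and DNAJC10 (-0.825). Higher in the EglN2 shRNA line and lower in the Scr line were KRTAP9-1 (1.16), CLDN6 (1.085), OR8G2P (0.93), SMIM5 (0.93), OR7D4 (0.90), CFAP97D1 (0.855), OR51A7 (0.845), CD8B (0.775) and MIR140 (0.695). For all genes higher in this way, both EglN2 shRNA arrays lay below both Scr arrays at day 0. Those day 0 levels are part of the difference the genes were named for, and the share over all named probe sets was not computed. With 2 arrays per group, no group was large enough for a test of single outlying arrays.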

How the results depend on the processing

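No probe set passed in 15 of the 16 alternatives; with an intensity trend in eBayes limma called 2, both of ALYREF (-1.23, adjusted p = 0.0143). In the other alternatives the smallest adjusted p lay between 0.1245 and 0.9868, and 882 to 3506 probe sets had an unadjusted p under 0.05. With 1 array left out, the lone array of its group being assumed to vary like the others, the count of calls ran between 0 and 0, ALYREF between -1.305 and -1.155, EGLN2 between -0.635 and -0.445, and PPM1K (probe set 8101701) between -0.615 and -0.275. CCND1 turned positive without the first EglN2 shRNA array at day 2 (0.03), the second EglN2 shRNA array at day 0 (0.035) or the second Scr array at day 2 (0.055), and ran between -0.295 and 0.055. With the replicate number as a block, limma called 0 and ALYREF had an adjusted p = 0.164, EGLN2 0.330 and PPM1K 0.455; with 2 numbers the pairing is not established (correlations of replicate deviations 0.098 to 0.271). Cyclic loess, chosen after seeing the data because of the dependence on level, called 0 and gave -1.14 for ALYREF; list medians became -0.26 for mitosis, -0.16 for DNA replication, -0.24 for histones, -0.25 for centrosome and cilium, -0.10 for the proteasome, -0.03 for heat shock chaperones and -0.12 for branched-chain amino acid breakdown. Quantile normalization gave -0.16 for DNA replication, -0.10 for the proteasome and for branched-chain amino acid breakdown, and -0.04 for heat shock chaperones. Medians of genes at the same levels were computed on the values as deposited only. The list medians under these normalizations therefore cannot be set beside them. The cause of these shifts was not tested. Signal over background was not analysed here, so dim genes have no detection call.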

Other observations

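Olfactory receptor genes, looked at after their values were seen, had a positive difference for 249 of 360 members and a negative one for 110. At an unadjusted p under 0.05, 25 were higher and 4 lower, and 0 passed the adjusted test. Of 2301 genes at the same range of levels, 63.2% were positive, 5.74% higher and 1.35% lower, with a median of 0.08. Their median level was 5.12, and their median difference was 0.14, made of 0.01 in the EglN2 shRNA line and -0.10 in the Scr line. These receptors are best known from the olfactory epithelium.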
